A study of Mus musculus with 6 samples.

Results

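The genes described here are 46 named members, chosen by symbol: Myc and Mycn, which encode transcription factors, and 44 genes whose products make ribosomes. Of the 46, 45 had a probe set assigned to them alone, and all 45 were among the 12285 genes tested. They were covered by 91 probe sets, of which 87 were bright enough to test. Mrto4, a large subunit assembly factor, shared its probe set with other gene names and is given no value. The cells were mouse E14 embryonic stem cells (129P2/OlaHsd background) with a Venus reporter of Msgn1, a transcription factor gene of the presomitic mesoderm. Differentiation ran as a monolayer in 15% serum, with 200 ng/mL of the BMP antagonist Noggin, 10 ng/mL of R-spondin3, which raises Wnt signalling, and 0.5% DMSO. Venus-positive cells sorted at day 4 (3 arrays) are compared with Venus-positive cells sorted at day 3 (3 arrays), and both days share the line, reporter, medium and gate. The labels call the arrays biological replicates and do not say whether they came from separate cultures, and the reporter line is 1 line.

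Ribosomes are built in the nucleolus. RNA polymerase I transcribes the precursor of the large ribosomal RNAs, guide RNA particles of the box C/D and box H/ACA classes modify it, and assembly factors fold and cut it while ribosomal proteins join. Precursors of the small and the large subunit then mature along separate routes and are exported to the cytoplasm. Myc and its paralogue Mycn bind DNA as heterodimers with Max at sequences called E-boxes, with CACGTG as the canonical form, and many ribosome biogenesis genes are known Myc targets. Stem cells and early embryonic progenitors are known for large nucleoli and high rates of ribosome production.

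RefSeq promoter windows (GRCm38.p6, 250 bases before and 50 bases from the annotated start site) were available for 41 of the members, and 9 of the 41 held CACGTG. The motif is its own reverse complement, so 1 search covers both strands. The share was 11.8% among the 9924 tested genes with a window and 8.09% among all 27025 genes with a window. Among other ribosome assembly factors, 17 of the 73 with a window held it (23.3%), a share close to the 22.0% of the members. The sites are shown for 6 members, those with the smallest p of the day comparison among the 9, because CACGTG is the canonical site of the Myc factors in the group. The motif is in capitals, with the bases on either side in lower case, each 5′ to 3′ on the strand of the gene.
Ltv1 (chr10:13193092-13193121, minus strand): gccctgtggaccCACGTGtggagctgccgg
Nop2 (chr6:125131811-125131840, plus strand): gtgtccctggatCACGTGtgttccggtgcc
Pno1 (chr11:17211540-17211564, minus strand): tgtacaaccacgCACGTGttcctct
Imp4 (chr1:34439696-34439725, plus strand): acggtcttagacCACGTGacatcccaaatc
Nle1 (chr11:82908355-82908384, minus strand): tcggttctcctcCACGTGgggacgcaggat
Wdr43 (chr17:71616220-71616249, plus strand): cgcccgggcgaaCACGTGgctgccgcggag

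In Ltv1, Pno1, Nle1 and Wdr43 the motif began 29, 38, 24 and 18 bases into the transcript. In Nop2 it began 60 and in Imp4 121 bases before the start site. The 200 bases before the start site of these 2 genes are given as context, with the motif in capitals.
Nop2 (chr6:125131683-125131882, plus strand): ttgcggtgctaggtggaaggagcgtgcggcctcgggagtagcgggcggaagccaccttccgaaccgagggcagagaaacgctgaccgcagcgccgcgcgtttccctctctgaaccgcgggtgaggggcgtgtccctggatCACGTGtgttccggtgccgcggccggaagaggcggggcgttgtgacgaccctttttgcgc
Imp4 (chr1:34439629-34439828, plus strand): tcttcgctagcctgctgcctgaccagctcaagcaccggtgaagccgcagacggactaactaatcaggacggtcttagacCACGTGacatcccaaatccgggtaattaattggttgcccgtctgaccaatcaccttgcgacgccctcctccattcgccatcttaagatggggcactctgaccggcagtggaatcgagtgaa
The other 3 members with the motif in the window were Tsr1, Pes1 and Mybbp1a. A match describes these letters only, and binding was not measured.

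The values are MAS5 signal intensities, a linear scale, and the arrays share a common overall level. A fall in a signal is therefore relative to the other genes of the array, and less RNA per cell and fewer cells of a type cannot be told apart. In day 4 replicate 1 the Gapdh control gave a 3′ to 5′ ratio of 14.04, and the remaining 5 arrays gave 2.43 to 3.19. Signal from the 5′ Gapdh probe set was 484, 2185 and 2648 at day 4 and 2750 to 3108 at day 3, lower on every day 4 array. The 3′ Gapdh signal was also lower, at 6791, 6978 and 6962 against 7258 to 7547. The ratio of day 4 replicate 3 was 2.63, within the 2.43 to 2.64 of day 3. Counts are given with and without day 4 replicate 1, and the part of RNA quality in the results was not tested. All 8 presomitic mesoderm markers were tested, with 2 higher, 1 lower and 5 neither (limma, adjusted p under 0.05). Over all genes tested, 11.5% were higher and 10.7% lower. The summed signal of the 8 was 4877 to 5117 at day 4 and 3031 to 3233 at day 3. Rspo3, the brightest of them, had means of 2695 and 1275. Msgn1 itself was at 33.2 ± 7.06 at day 4 and 74.6 ± 15.0 at day 3 (± gives the SD of signals throughout, with n = 3 per day).

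Of the 45 members, 17 were lower at day 4 than at day 3, 1, Mycn, was higher and 27 did not pass (limma, adjusted p under 0.05 over all genes tested), against a background of 10.7% of all genes lower and 11.5% higher. Among the 43 members other than Myc and Mycn, 16 were lower and 0 higher, and 40 had an estimate below 0, as did 51.3% of all genes. The median change of these 43 was -0.27 on the log2 scale (day 4 minus day 3, as for all changes below), against -0.01 for all genes tested, and their changes ran from -0.75 to 0.27. Without day 4 replicate 1 the counts over the 45 were 25 lower and 1 higher, against a background of 14.5% lower and 14.2% higher.

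**Figure D1:**
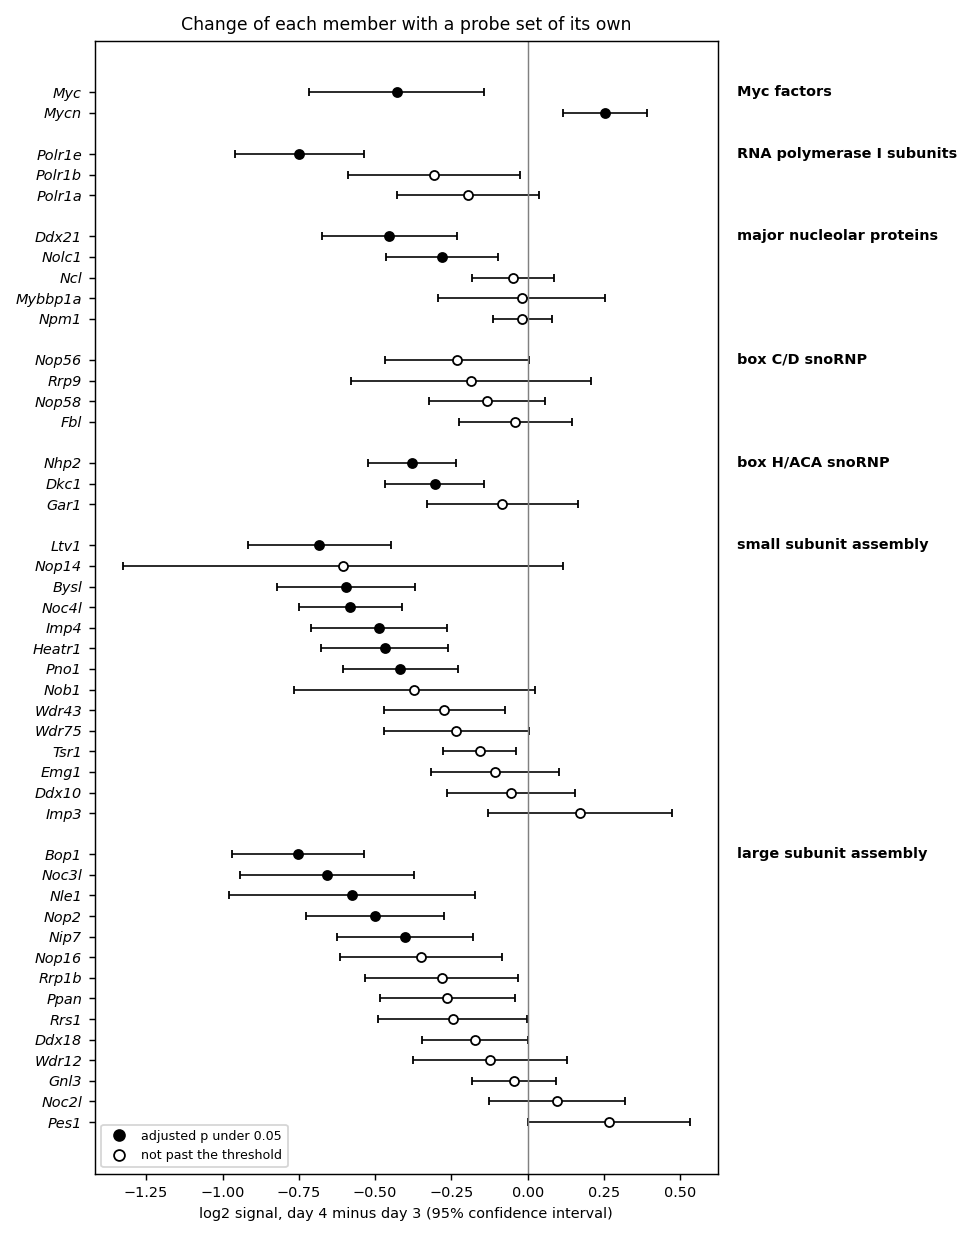
Change of each of the 45 members, as log2 signal at day 4 minus day 3 on the horizontal axis, grouped by role; points are limma estimates, bars are 95% confidence intervals and filled points passed an adjusted p of 0.05. Mycn is the filled point to the right of 0, and the other 17 filled points lie to the left, down to -0.75 for Bop1 and Polr1e.

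**Figure D2:**
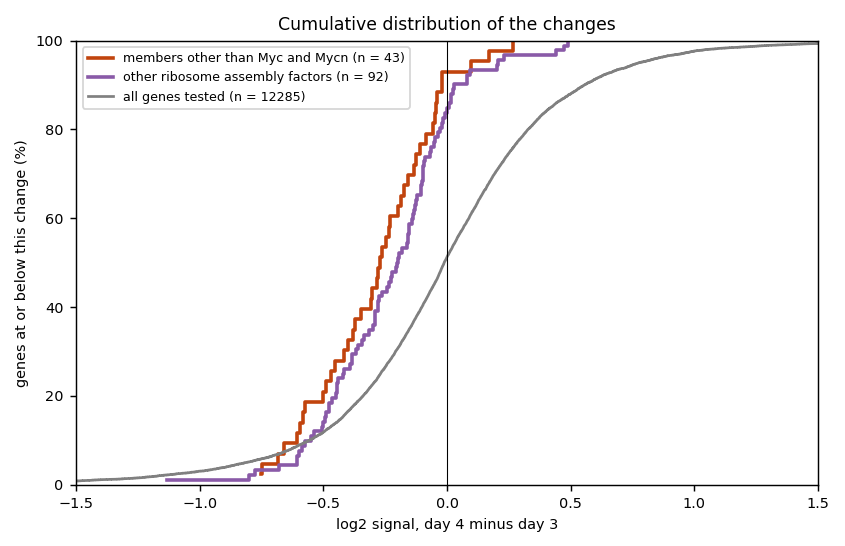
Cumulative share of genes (percent, vertical axis) at or below each log2 change, day 4 minus day 3 (horizontal axis), for the 43 members other than Myc and Mycn, 92 other ribosome assembly factors and all 12285 genes tested. The curves of both ribosome groups rise to the left of the curve of all genes between -0.5 and 0, with medians of -0.27, -0.20 and -0.01.

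The shift was of similar size on each day 4 array. Relative to each gene's day 3 mean, the median of the 43 was -0.27, -0.25 and -0.23 on day 4 replicates 1, 2 and 3, against 0.02, -0.02 and -0.00017 on day 3 replicates 1, 2 and 3. Signals lay below the whole day 3 range for 30, 31 and 35 of the 43 on the 3 day 4 arrays, where 37.1%, 36.4% and 35.9% of all genes did. The arrays of the 2 days did not overlap for 24 members lower at day 4 and for 1 higher, Pes1, against a background of 20.6% lower and 20.7% higher. The spread was not equal, as the median SD of the 43 was 0.13 at day 4 and 0.051 at day 3 on the log2 scale, and 0.055 between day 4 replicates 2 and 3.

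**Figure D3:**
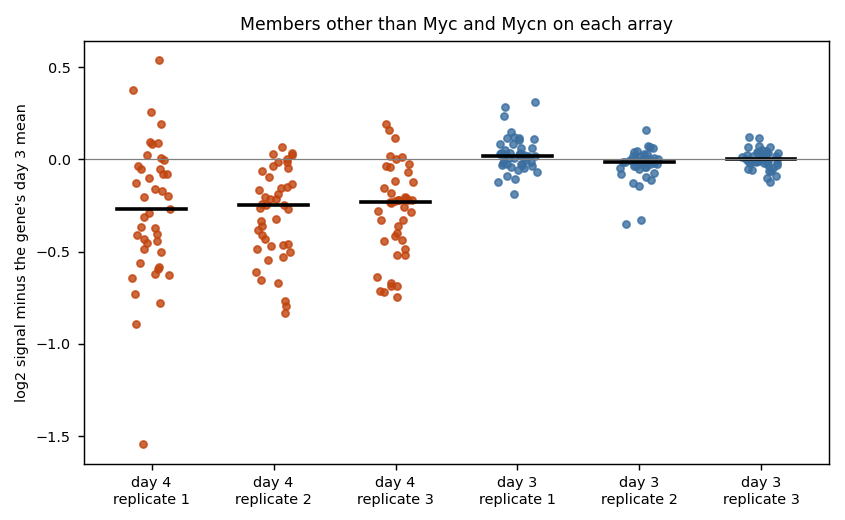
Log2 signal of the 43 members other than Myc and Mycn on each array, relative to the gene's day 3 mean; points are genes, sideways scatter has no meaning and black lines are medians. The medians of the 3 day 4 arrays lie between -0.27 and -0.23, and day 4 replicate 1 has the widest scatter, with Nop14 lowest.

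Members of low and high signal were both represented. The 21 dimmer members, with mean signals of 94.6 to 903, had 8 lower and a median change of -0.35, where 13.2% of all genes in that range were lower. The 22 brighter members, at 952 to 9493, also had 8 lower, with a median of -0.23, and 15.6% of all genes in their range were lower.

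The 2 Myc factors changed in opposite directions, Myc lower and Mycn higher at day 4. Myc, which drives growth genes, had signals of 248, 195 and 213 on day 4 replicates 1 to 3, against 329, 274 and 280 on day 3 replicates 1 to 3. All day 4 arrays were below all day 3 arrays, and the change was -0.43 ± 0.13 (± gives the SE of changes throughout; limma adjusted p = 0.039). Mycn, the paralogue that predominates in many embryonic progenitors, had 2219, 2182 and 2221 at day 4 and 1838, 1886 and 1836 at day 3. Its groups did not overlap and the replicates of each day lay close together, for a change of 0.25 ± 0.06 (limma adjusted p = 0.0169). Both calls depended on which arrays entered. When arrays were left out in turn, the Myc call held in 1 of 6 fits, without day 4 replicate 1 (-0.52, adjusted p = 0.00618). Without day 3 replicate 1, 2 or 3 the estimates were -0.35, -0.48 and -0.46 (adjusted p = 0.127, 0.0713 and 0.0898). Without day 4 replicate 2 or 3 they were -0.35 and -0.41 (adjusted p = 0.129 and 0.0954), so the estimate stayed below 0 where the call was lost. The Mycn call was lost without day 3 replicate 2 or 3 (adjusted p = 0.0526 and 0.0796) and without day 4 replicate 2 or 3 (adjusted p = 0.0574 and 0.053). Mycn had 2 more probe sets, with day 4 means of 37.0 and 23.8 and day 3 means of 35.9 and 14.7, with overlapping days and log2 estimates of -0.49 and 0.99. When the 3 probe sets were averaged, Mycn did not pass (adjusted p = 0.663).

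**Figure D4:**
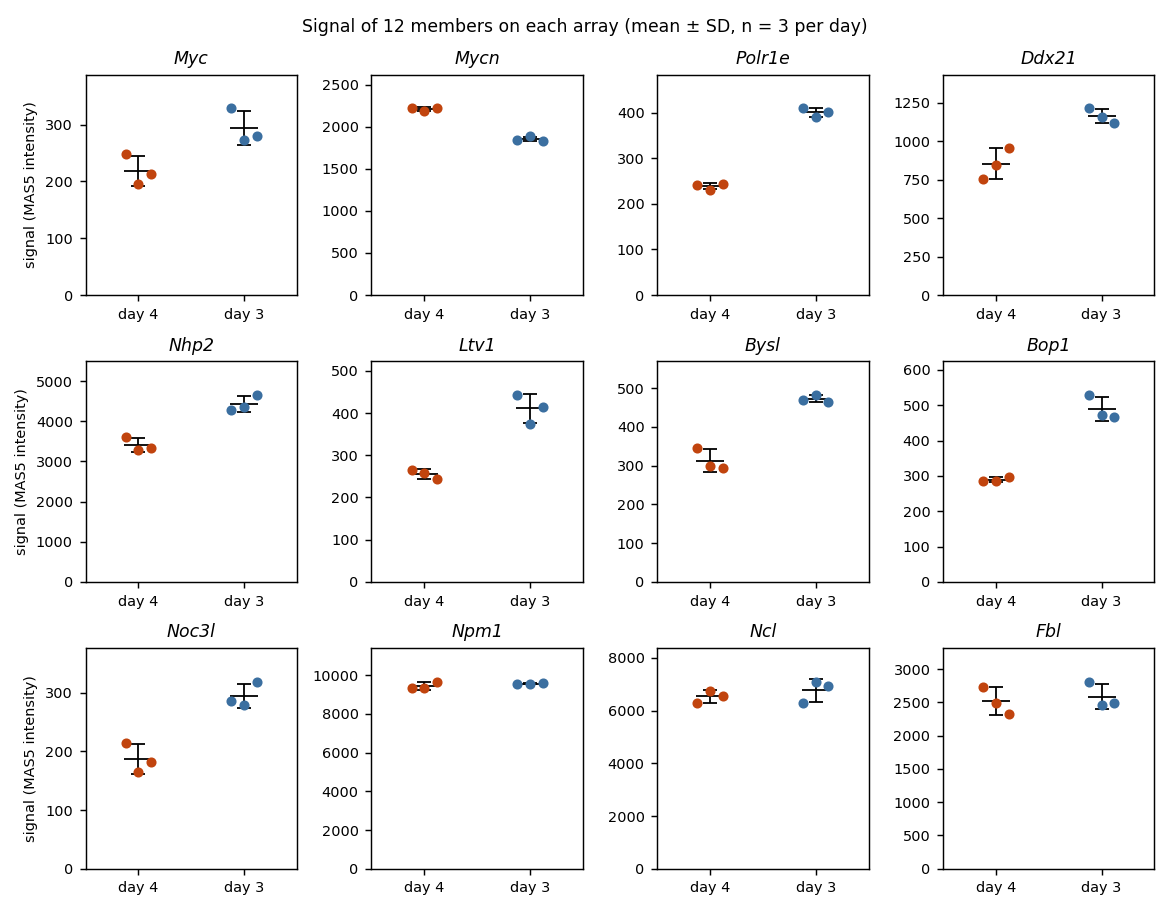
Signal (MAS5 intensity, linear axes from 0) of 12 members on each array, day 4 left and day 3 right; coloured points are arrays, and black marks are means with SD, n = 3 per day. Myc and the 7 members from Polr1e to Noc3l are lower at day 4 on every array, Mycn is higher, and Npm1, Ncl and Fbl overlap between days.

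All 3 RNA polymerase I subunits had estimates below 0, as did 51.3% of all genes. Of the 3, 1 passed as lower, where 10.7% of all genes did. Polr1e, a polymerase I subunit, had 241, 231 and 244 at day 4, against 410, 391 and 402 at day 3. The groups were far apart relative to their spread, with a change of -0.75 ± 0.09 (limma adjusted p = 0.000683), or 59.5% of the day 3 level. Its brightest probe set carries the suffix _x_at, which marks probes that may bind other transcripts, but its other probe set gave -0.70 ± 0.12. Polr1a, the largest subunit, was at 239 ± 17.1 and 273 ± 6.87 (day 4 and day 3), and Polr1b, the second largest, at 274 ± 44.1 and 337 ± 8.11. Neither overlapped between days and neither passed (adjusted p = 0.204 and 0.109), and Polr1b passed without day 4 replicate 1 (-0.44, adjusted p = 0.00523).

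Among 5 major nucleolar proteins, 2 were lower, where 10.7% of all genes were. Ddx21, an RNA helicase that links polymerase I and snoRNA function, had 756, 847 and 957 at day 4, against 1215, 1158 and 1119 at day 3. Every day 4 array was below day 3, with a change of -0.45 ± 0.10 (limma adjusted p = 0.00996). Nolc1, a chaperone of snoRNA particles, fell by 0.28 ± 0.08 (adjusted p = 0.036). The Nolc1 call was lost without any day 3 replicate (adjusted p = 0.0715, 0.125 and 0.111 without replicates 1, 2 and 3) and without day 4 replicate 2 or 3 (0.132 and 0.102). Npm1, which encodes nucleophosmin, had 9315, 9330 and 9654 at day 4 and 9534, 9549 and 9584 at day 3, so the days overlapped (change -0.02, 95% confidence interval -0.12 to 0.08). Ncl, which encodes nucleolin, was at 6537 ± 236 and 6768 ± 426, with an interval of -0.18 to 0.09. Only 26 probe sets of the array were brighter than that of Npm1 and 185 brighter than that of Ncl, and saturation of such bright probe sets was not tested. The dimmer Npm1 probe set was at 6093 ± 317 at day 4 and 6091 ± 85.0 at day 3, a change of -0.00069 ± 0.057. Mybbp1a, a nucleolar protein that binds Myb, was at 1683 ± 296 and 1693 ± 144, and its estimate changed sign with the setting.

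The box C/D and box H/ACA particles, which guide methylation and pseudouridylation of ribosomal RNA, gave 0 of 4 and 2 of 3 members lower. The share over all genes was 10.7%. Without day 4 replicate 1 the counts were 2 of 4 and 3 of 3, where 14.5% of all genes were lower. None of the box C/D members passed with the brightest probe set, but a dimmer Nop56 probe set was lower (-0.71, given below). The methyltransferase Fbl was at 2517 ± 208 and 2589 ± 192 (day 4 and day 3). The core proteins Nop56 and Nop58 were at 1781 ± 282 and 2075 ± 46.6 and at 1503 ± 146 and 1644 ± 60.3. Rrp9, which binds a processing snoRNA, was at 191 ± 27.0 and 220 ± 47.0. Without day 4 replicate 1 Nop56 and Nop58 passed (-0.35 and -0.21, adjusted p = 0.00324 and 0.0277). Nhp2, a core protein of the H/ACA particle, had 3616, 3284 and 3324 at day 4, against 4278, 4364 and 4651 at day 3. The days did not overlap, with a change of -0.38 ± 0.06 (limma adjusted p = 0.00298). Dkc1, which encodes the pseudouridine synthase dyskerin, fell by 0.31 ± 0.07 (adjusted p = 0.0146). It did not pass without day 3 replicate 2 or 3 (0.0579 and 0.0765). Gar1, the other H/ACA core protein among the members, was at 1619 ± 276 and 1699 ± 49.0. It was lower only without day 4 replicate 1 (-0.22, adjusted p = 0.0209).

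Of 14 small subunit assembly genes, 6 were lower and 0 higher, against 10.7% and 11.5% of all genes, with a median change of -0.39. Without day 4 replicate 1, 10 were lower, where 14.5% of all genes were. Ltv1, which accompanies the precursor of the small subunit to the cytoplasm, had 265, 257 and 244 at day 4, against 443, 375 and 415 at day 3, the lowest change of the role (-0.68 ± 0.10, limma adjusted p = 0.00186). Bysl, which is needed for late processing of small subunit RNA, had 347, 300 and 294 at day 4 and 469, 482 and 465 at day 3. It fell by 0.60 ± 0.10 (adjusted p = 0.00316), and in both genes all day 4 arrays were below all day 3 arrays. Noc4l, whose yeast counterpart partners Nop14 in the processome, fell by 0.58 ± 0.08 to 787 ± 29.8, against 1177 ± 9.22 at day 3 (adjusted p = 0.000768). The 2 brighter Noc4l probe sets are of the _x_at kind. Without such probe sets the change was -0.26 and did not pass (adjusted p = 0.166).

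Imp4, which with Imp3 and Mphosph10 forms a processome subcomplex, had 357, 363 and 349 at day 4, against 553, 468 and 482 at day 3. Heatr1, a processome protein that also acts in polymerase I transcription, had 861, 1072 and 990 at day 4 and 1319, 1325 and 1388 at day 3. Pno1, an RNA-binding factor of the late small subunit precursor, had 1208, 1028 and 1038 at day 4 and 1476, 1433 and 1454 at day 3. These 3 genes were lower on every day 4 array, with changes of -0.49 ± 0.10, -0.47 ± 0.09 and -0.42 ± 0.08 (limma adjusted p = 0.00752, 0.00672 and 0.00715). Each of the 6 calls of this role was kept in all 6 fits that left out an array.

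The other 8 small subunit members did not pass. Tsr1, a factor of the late precursor related to GTPases, was at 3685 ± 63.0 and 4111 ± 52.2, and Wdr43, a processome subunit, at 1077 ± 105 and 1297 ± 20.9 (adjusted p = 0.0606 and 0.0519). Neither overlapped between days, and both passed without day 4 replicate 1 (adjusted p = 0.0365 and 0.0477), Wdr43 also without day 4 replicate 2 (0.049). Wdr75, another processome subunit, and Emg1, a methyltransferase of small subunit RNA, were at 1379 ± 132 and 1625 ± 193 and at 1595 ± 199 and 1711 ± 66.8. They too passed without day 4 replicate 1 (adjusted p = 0.0279 and 0.0307). Nop14, a processome protein, had 176 on day 4 replicate 1, 493 and 446 on the other day 4 arrays and 557, 507 and 484 at day 3, so its estimate of -0.61 ± 0.32 rested largely on that array and was -0.14 without it. Nob1, the nuclease that makes the final cut of small subunit RNA, was at 414 ± 70.5 and 538 ± 117. Ddx10, a helicase, was at 528 ± 36.4 and 548 ± 22.2, with a change of 0.0019 without day 4 replicate 1. Imp3 was the only small subunit member with an estimate above 0 (0.17 ± 0.13, adjusted p = 0.398).

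Of 14 large subunit assembly genes with a value, 5 were lower and 0 higher, against 10.7% and 11.5% of all genes, with a median change of -0.27. The count was also 5 without day 4 replicate 1, where 14.5% of all genes were lower, with Ddx18 in place of Nle1. Bop1, a scaffold of the PeBoW complex that is needed to process large subunit RNA, had 285, 287 and 297 at day 4, against 529, 471 and 467 at day 3. The day 4 arrays lay close together and below all day 3 arrays, with a change of -0.75 ± 0.10 (limma adjusted p = 0.000758), or 59.3% of the day 3 level. Noc3l, whose yeast counterpart escorts large subunit precursors, had 215, 165 and 182 at day 4 and 286, 278 and 318 at day 3. It fell by 0.66 ± 0.13 (adjusted p = 0.00591), and averaging its probe sets ended the call (-0.27, adjusted p = 0.125). Nop2, a methyltransferase of large subunit RNA, had 323, 334 and 381 at day 4 and 480, 509 and 477 at day 3, with no overlap and a change of -0.50 ± 0.10 (adjusted p = 0.00711).

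Nip7, a factor of large subunit RNA processing, fell by 0.40 ± 0.10 (limma adjusted p = 0.018). Its call was lost without any day 3 replicate (adjusted p = 0.0657, 0.0532 and 0.0667 without replicates 1, 2 and 3), without day 4 replicate 2 or 3 (0.0677 and 0.0625), and when its probe sets were averaged (-0.068, adjusted p = 0.692). Nle1, whose yeast counterpart acts in the release of factors from the large subunit precursor, had 62.2, 75.7 and 99.0 at day 4, against 122, 117 and 108 at day 3. It fell by 0.58 ± 0.18 (adjusted p = 0.0467), a call that was lost without any day 3 replicate (0.134, 0.124 and 0.0946) and without day 4 replicate 1 or 2 (0.0694 and 0.106).

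Of the other large subunit genes, Nop16, Rrp1b, Ppan and Ddx18 were lower on every day 4 array without passing, with changes of -0.35, -0.28, -0.26 and -0.17 (limma adjusted p = 0.0611, 0.1, 0.0854 and 0.14). Nop16 and Rrp1b passed without day 4 replicate 3 (adjusted p = 0.0243 and 0.019), and Ddx18, a helicase, without day 4 replicate 1 (0.0162). Rrs1, a large subunit factor, was at 2807 ± 421 and 3309 ± 242. Wdr12, a PeBoW member, and Gnl3, which encodes nucleostemin, had changes of -0.13 ± 0.11 and -0.05 ± 0.06. Pes1, the remaining PeBoW member, had 1196, 862 and 941 at day 4 and 836, 816 and 819 at day 3, the only one of the 43 that was higher on every day 4 array, with a change of 0.27 ± 0.12 that did not pass (adjusted p = 0.137). Noc2l, which partners Noc3l in yeast, was at 425 ± 18.2 and 398 ± 30.4 (change 0.10 ± 0.10).

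The estimates of some partners in the same complex or family lay apart. These 5 pairs were chosen after their values were seen, so the differences are a description with no test, and they rest on the brightest probe set of each gene. The log2 change of Mycn exceeded that of Myc by 0.68 ± 0.13 (SE over arrays), that of Imp3 exceeded that of Imp4 by 0.66 ± 0.12, and that of Polr1c exceeded that of Polr1e by 1.06 ± 0.08. Pes1 exceeded Bop1 by 1.02 ± 0.16, but the dimmer Pes1 probe set changed by -1.21, below Bop1 at -0.75, so that direction turns with the probe set. Noc2l exceeded Noc3l by 0.75 ± 0.11, but the dimmer Noc3l probe set had an estimate of 0.11, next to 0.10 for Noc2l.

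Probe sets of 1 gene did not always give the same size of change. When every probe set was tested on its own, 28 of the 87 member probe sets were lower and 1 higher, against a background of 8.53% lower and 9.67% higher. Of 30 members with more than 1 tested probe set, 24 had all of them in 1 direction and 6 had them in both (Mycn, Nip7, Noc3l, Pes1, Rrp1b and Wdr75). In 7 of the 30, namely Pes1 and, with all probe sets below 0, Ncl, Nop56, Wdr43, Rrs1, Ddx10 and Ddx18, a dimmer probe set was lower while the brightest did not pass. For these counts of the 30, the shares over all genes with more than 1 tested probe set were not computed. A gene with more probe sets has more chances of a call. Of 4 dimmer Ncl probe sets, the one that passed was at 967 ± 107 at day 4 and 1890 ± 130 at day 3, a change of -0.97 ± 0.10 (adjusted p = 0.000441 over all probe sets), where the brightest gave -0.05. The dimmer Nop56 probe set gave -0.71 ± 0.12 (adjusted p = 0.00491), and for Ddx21 the dimmer probe set gave -1.74 ± 0.14, at 203 ± 37.9 and 671 ± 36.9 (day 4 and day 3). The 2 Pes1 probe sets went opposite ways. The dimmer had 66.6, 54.9 and 47.2 at day 4, against 107, 117 and 171 at day 3, a change of -1.21 ± 0.21 (adjusted p = 0.00542), so the direction for Pes1 depends on the probe set.

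**Figure D5:**
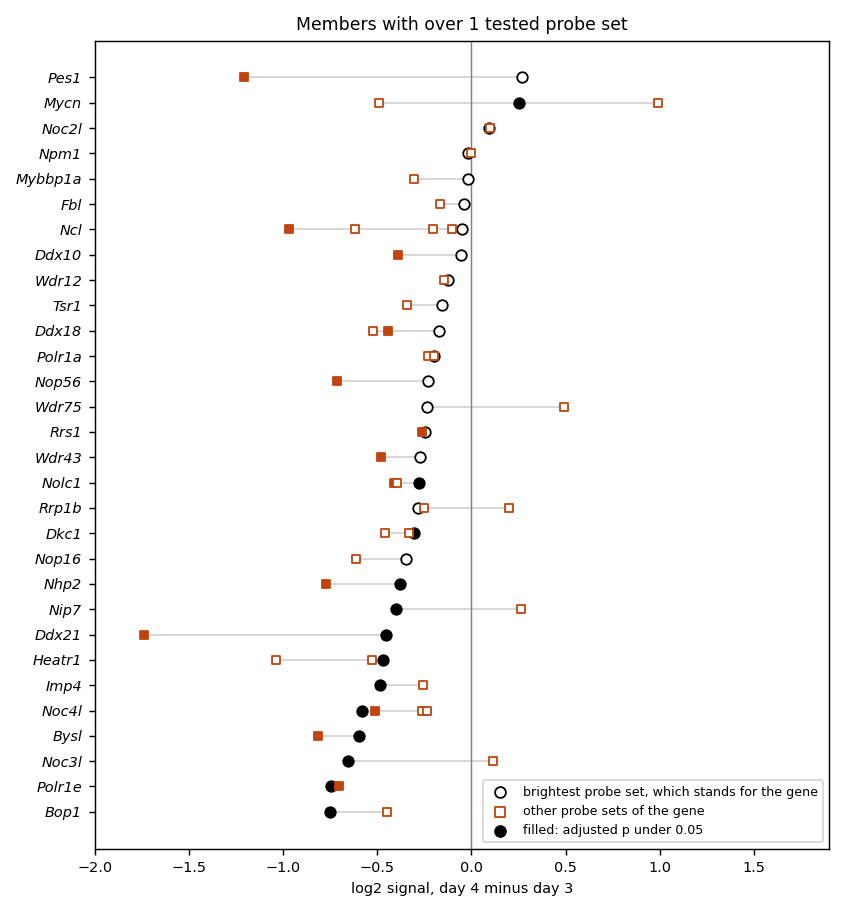
Log2 change, day 4 minus day 3 (horizontal axis) of every tested probe set of the 30 members with more than 1; circles are the brightest probe set, squares the others, and filled symbols passed an adjusted p of 0.05 (brightest as well as other probe sets, fitted over all probe sets). The filled squares of Ncl (-0.97), Pes1 (-1.21) and Ddx21 (-1.74) lie far left of the circles of the same genes.

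The wider pathway was described by other lists. Of 92 other ribosome assembly factors tested, 28 were lower and 1 higher, with a median change of -0.20, against the same background of 10.7% lower and 11.5% higher. The counts were 40 lower and 2 higher without day 4 replicate 1, where 14.5% of all genes were lower. Without day 3 replicate 3 they were 16 and 1, where 5.83% of all genes were lower. Eif6, which keeps the large subunit from joining the small one, was at 1456 ± 199 and 2321 ± 125 (day 4 and day 3), a change of -0.68 ± 0.10 (limma adjusted p = 0.00183). Mphosph10, the partner of Imp3 and Imp4, fell by 0.59 ± 0.09, and Rsl24d1, a large subunit factor, by 0.61 ± 0.09 (adjusted p = 0.00198 and 0.00197). The processome protein Ngdn and Nifk, a nucleolar partner of Ki-67, fell by 0.50 ± 0.08 and 0.54 ± 0.09. Nop53, a large subunit factor, was the 1 that rose, with 3548, 3220 and 3145 at day 4 and 2409, 2371 and 2520 at day 3 (0.44 ± 0.07, adjusted p = 0.00198).

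Of 16 other genes of RNA polymerase I transcription, 1 was higher (6.25%, against 11.5% of all genes) and 0 lower (against 10.7%). The median was -0.19. The 1 was Polr1c, a subunit that polymerase I shares with polymerase III, with 3334, 3802 and 3409 at day 4 and 2932, 2757 and 2773 at day 3 (0.32 ± 0.07, limma adjusted p = 0.0105). The initiation factors Rrn3 and Ubtf had changes of -0.32 ± 0.11 and -0.46 ± 0.15 (adjusted p = 0.0589 and 0.0614). Without day 4 replicate 1, 5 of the 16 were lower, where 14.5% of all genes were. Among 17 Myc partners and antagonists, 2 were higher (11.8%) and 1 lower (5.88%), shares near or under the 11.5% and 10.7% of all genes. Mxi1, which competes with Myc for Max, had 304, 310 and 300 at day 4 and 220, 214 and 199 at day 3 (0.53 ± 0.10, adjusted p = 0.00531), and Mga, another Max partner, rose by 0.30 ± 0.09 (adjusted p = 0.0389). Mlxip, of the extended Max network, fell by 0.47 ± 0.12 (adjusted p = 0.022). Max itself was dim, with 3.30, 30.4 and 24.7 at day 4 and 53.3, 33.2 and 37.0 at day 3. Its days did not overlap, its estimate was -1.57 ± 0.72 over all arrays and -0.56 without day 4 replicate 1, and it did not pass (limma adjusted p = 0.149).

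Of 29 classic Myc targets outside ribosome biogenesis, 5 were lower (17.2%, against 10.7% of all genes) and 0 higher, with a median of -0.18. The count was 12 lower without day 4 replicate 1, where 14.5% of all genes were. The transferrin receptor gene Tfrc fell by 0.96 ± 0.12 to 1410 ± 260, against 2713 ± 76.3 at day 3 (limma adjusted p = 0.000765). Srm, which makes spermidine, was at 1158 ± 336 and 2000 ± 71.9 (-0.83 ± 0.16, adjusted p = 0.00671). Ppat, of purine synthesis, the cyclin gene Ccnd2 and the mitochondrial chaperone gene Hspd1 fell by 0.42 ± 0.09, 0.45 ± 0.11 and 0.16 ± 0.05.

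Markers of other states were compared between the same arrays, against the background of 10.7% of all genes lower and 11.5% higher. Of 9 epiblast and pluripotency genes, 7 were lower and 0 higher at day 4, with a median of -0.75 and a summed signal of 9550 to 9733 at day 4 and 13071 to 13377 at day 3. Pou5f1, which encodes Oct4, was at 165 ± 2.53 and 622 ± 44.3. The summed signal of the 43 members was 58281 to 60202 at day 4 and 66453 to 67294 at day 3. Of 18 proliferation genes tested, 3 were higher (16.7%), 1 was lower (5.56%) and 14 did not pass, with a median of -0.07. The cell cycle marker Mki67 was at 3427 ± 301 and 2675 ± 29.3 (0.35 ± 0.07, limma adjusted p = 0.00772), while Ccne1, a cyclin of S phase entry, fell by 0.63 ± 0.11 (adjusted p = 0.00389). Ccnd1, a cyclin of early G1 that is not among the 18, changed by -1.56 ± 0.10 (adjusted p = 2.17e-05). Endoderm genes were lower in 3 of 5 tested (summed signal 373 to 376 and 607 to 646), cardiac and lateral plate genes higher in 4 of 10 (989 to 1063 and 515 to 534), and of 6 endothelial and blood genes 1 was higher and 2 lower (738 to 1006 and 759 to 811), each sum at day 4 and then day 3. Neural genes were lower in 1 of 3 tested (87.4 to 110 at day 4 and 143 to 171 at day 3). Of the genes on these lists, 11 endothelial and blood, 7 endoderm and 7 neural genes had a probe set. Those not tested were under the signal filter. The part of these cell states in the members' changes was not tested.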

How the data were processed

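Per the labels' protocols, RNA of sorted cells (Trizol or an RNeasy kit, not given per sample) was amplified in 2 rounds and hybridised to 1 array per sample. The deposited values are linear signal intensities from MAS5, per the submitters' processing notes. The MAS5 version, scaling target and any detection call were not given in the sources used here. Array means trimmed to the middle 96% were 160.4 to 162.1, so no scaling was added.

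Of 45101 probe sets, 34958 had 1 gene symbol in the platform annotation. Each of 18193 genes was represented by its brightest probe set, and the 12285 above the 40th percentile (a signal of 13.5) were tested. Log2 of the deposited intensities was fitted with limma 3.58.1 in R 4.3.3 (day as the only term, eBayes with trend, 2-sided), and p-values were adjusted (Benjamini-Hochberg) across the 12285 genes, with a threshold of 0.05. Sequences are from RefSeq. The fit was tested on simulated data in which each gene had the same spread on both days. Unequal spread between days was therefore not covered.

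The members and lists were chosen with earlier results of these data known. All members could be named, of each other list the 6 genes with the smallest p, and Msgn1, Tbx6, Pou5f1, Nanog, Sox2, Max, Mki67 and Ccnd1 whatever their values. Alternatives were an offset of 4.14, quantile normalization, median centring, no filter or one at the 60th percentile, the mean over probe sets, leaving out _x_at, _s_at and _a_at probe sets, eBayes without trend, array weights, a replicate block, a threshold of 0.10 and leaving out each array. Counting every probe set was added after the data were seen. The number of arrays limits the precision.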

Additional observations from a re-analysis of the deposited data

How the results depend on the processing

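Of the 18 members past the threshold, 10 passed under every alternative, and 14 of the 27 that did not pass did so under at least 1. Leaving out arrays gave 12 to 25 members lower, 0 to 1 higher, 16 to 40 other assembly factors lower and 1 to 2 higher. In these fits 1582 to 3530 of all genes were called in either direction, and 5.83% to 14.5% were lower. For Myc these fits gave -0.52 to -0.35 and for Mycn 0.25 to 0.265. Array weights gave 27 members lower, 44 other assembly factors lower and 4 higher. With these weights 4312 genes were called in either direction, and the share lower was not computed. Testing each probe set gave 28 lower. With the mean over probe sets 0 members were higher and 1796 genes were called. With eBayes without trend 12 members and 19 other assembly factors were lower, 0 members were higher and 2059 genes were called. Under that setting Myc (-0.43, adjusted p = 0.0742) and Mycn (0.25, adjusted p = 0.0801) did not pass. Mycn with the mean was at 0.25. Mycn was the 1 member higher, so its loss gives the counts of 0. The other assembly factors higher were 2 with the 60th percentile filter, the replicate block and the threshold of 0.10. Estimates of some uncalled members changed sign. Leaving out arrays gave -0.157 to 0.081 for Mybbp1a, -0.102 to 0.019 for Fbl and -0.093 to 0.0019 for Ddx10. Mybbp1a was at 0.0077 and Gnl3 at 0.0074 with quantile normalization. Wdr75 was at 0.13 with the mean over probe sets and 0.49 without suffixed probe sets, and Pes1 at -0.47 with the mean. The cause was not tested. Deviations of same-numbered arrays had correlations of 0.067, 0.011 and -0.00051 across the days, and those of other pairs ran from -0.065 to 0.070. With 3 arrays per day, these values cannot settle whether same-numbered arrays were paired. With the replicate block 18 members were lower and 1 higher. The median change of all tested genes was -0.0116 as deposited, -0.025 with quantile normalization and -0.044 with median centring.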
